A study of Mus musculus with 4 samples.

Results

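The genes described here are 10 cytokine genes of the interleukin-1 (IL-1) family and of epithelial cytokine signalling, with their receptors, among the 17630 genes measured in mouse mammary basal cells. They are Il1a, Il1b, Il18 and Il33, which encode IL-1 family ligands, Il1rn, which encodes the IL-1 receptor antagonist, Il1r1 and Il1rap, which encode the receptor and its accessory protein, and Il6, Il24 and Tslp, which encode cytokines of other families. They were chosen by name with the FPKM values of these same 4 libraries already known, so their levels and differences are given as a description. All 10 were found in every library.

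IL-1 alpha and IL-1 beta bind IL-1R1, which recruits IL-1RAP and signals through MyD88, IRAK kinases and NF-kB, while the antagonist encoded by Il1rn occupies the receptor without signalling. IL-1 alpha is active as it is made and is stored in keratinocytes and other barrier epithelia, whereas IL-1 beta and IL-18 are cut by caspase-1 before release. IL-33 is a nuclear alarmin of epithelial, endothelial and stromal cells that is released on damage. IL-6 signals through gp130 and STAT3, IL-24 belongs to the IL-20 family, and TSLP is an epithelial cytokine that acts on dendritic and lymphoid cells.

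The study asked how sympathetic nerve signals act on the basal layer of the mammary duct, the outer epithelial layer that contains the mammary stem cells. All 4 libraries came from wild-type (WT) cells labelled as primary mammary basal cells, with 1 library per group and no replicates. Control basal cells had no treatment, and the 6-OHDA basal cells came from mice given 6-hydroxydopamine, a neurotoxin that destroys sympathetic nerve endings. The study used several 6-OHDA regimens at different ages and does not say which one gave the sequenced mice. The other libraries carry the same source name as the sorted cells, and that they are Matrigel colonies of basal cells is read from the series description and the agonist treatment. They are called control colonies, with no treatment, and SP colonies, with salbutamol, an agonist of the beta2 adrenergic receptor, and phenylephrine, an agonist of the alpha1 adrenergic receptor. The label of the SP library carries the number 200 with no unit. In the study's sorting scheme, basal cells were negative for CD31, CD45 and TER119, positive for CD24 and high for CD29, and the colony medium held epidermal growth factor and insulin-transferrin-selenium.

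The authors deposited FPKM, which scales fragment counts by transcript length and library size, so levels of different genes within a library may be set side by side. The depth was not given. From the steps between low values of genes with 1 transcript, a level of 1 FPKM was put at roughly 16.3 to 17.9 fragments per kilobase in the 4 libraries, at an assumed fragment length of 250 bases. Differences were computed on log2(FPKM + 1), which understates changes of low genes, and genes that averaged under 1 FPKM across the pair did not pass the filter. A gene under 1 FPKM in the control library of a pair can pass only by being higher in the other, so it can be counted only as higher. A gene that passed is said to rise or fall when its difference was over 0.3 in size. No test between conditions was possible with 1 library per group, and each difference is one between 2 libraries. In bulk RNA, fewer cells of a type and less RNA per cell cannot be told apart.

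Il1a was at 0.56 FPKM in control sorted cells, 0.24 in 6-OHDA sorted cells, 9.01 in control colonies and 34.2 in SP colonies. It was low in both sorted libraries and higher in both colony libraries. Il1b, the other agonist ligand of IL-1R1, was at 1.25, 1.63, 0.05 and 0.07 FPKM in the same order of libraries, and so it was near 0 in the colonies. Il1rn was at 2.03, 0.98, 24.0 and 28.9 FPKM. Like Il1a, it was low in the sorted cells and well above them in the colonies. Ratios between members were picked after their values were seen. The ratio of Il1rn to Il1a was 3.63 in control sorted cells, 4.08 in 6-OHDA sorted cells and 2.67 in control colonies, but 0.846 in SP colonies. The SP library was therefore the only 1 of the 4 in which Il1a exceeded Il1rn. Il1b exceeded Il1rn in 6-OHDA sorted cells, at 1.63 against 0.98 FPKM. By the depth estimate Il1a stood for roughly 16 and 7 fragments in control and 6-OHDA sorted cells, Il1b for 9 and 12 and Il1rn for 38 and 18. The sorted ratios of these genes therefore rest on few fragments.

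Il1r1 was at 35.9 FPKM in control sorted cells, 33.8 in 6-OHDA sorted cells, 10.8 in control colonies and 7.98 in SP colonies. Il1rap, the shared accessory chain, was at 10.8, 10.9, 23.2 and 25.6 FPKM. The order of the receptor chains was opposite in the 2 kinds of sample. The ratio of Il1r1 to Il1rap was 3.32 and 3.10 in the control and 6-OHDA sorted cells, and 0.466 and 0.312 in the control and SP colonies.

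Il33 had the narrowest range of the 10 genes, at 87.7, 66.4, 78.6 and 49.9 FPKM in control sorted cells, 6-OHDA sorted cells, control colonies and SP colonies. It was the most abundant of the IL-1 family ligands in every library, and it ranked 923 of 17630 genes in control sorted cells. Il18 was at 0.16, 0.46, 1.40 and 3.10 FPKM, or roughly 1, 4, 13 and 29 fragments by the depth estimate. The sorted values of Il18 were therefore set by a handful of fragments.

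Il6 had the widest range, at 139 FPKM in control sorted cells, 196 in 6-OHDA sorted cells, 0.25 in control colonies and 1.01 in SP colonies. It was the most abundant of the 10 genes in both sorted libraries, where it ranked 564 and 394 of 17630 genes, and it stood for roughly 4 and 14 fragments in the colonies. Il24 was at 11.8, 7.89, 1.17 and 34.1 FPKM in the same order, with only about 13 fragments in control colonies. It was thus lowest in control colonies and highest in SP colonies. Tslp was at 4.91, 4.61, 1.15 and 2.69 FPKM, higher in the sorted libraries than in the colonies.

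**Figure D1:**
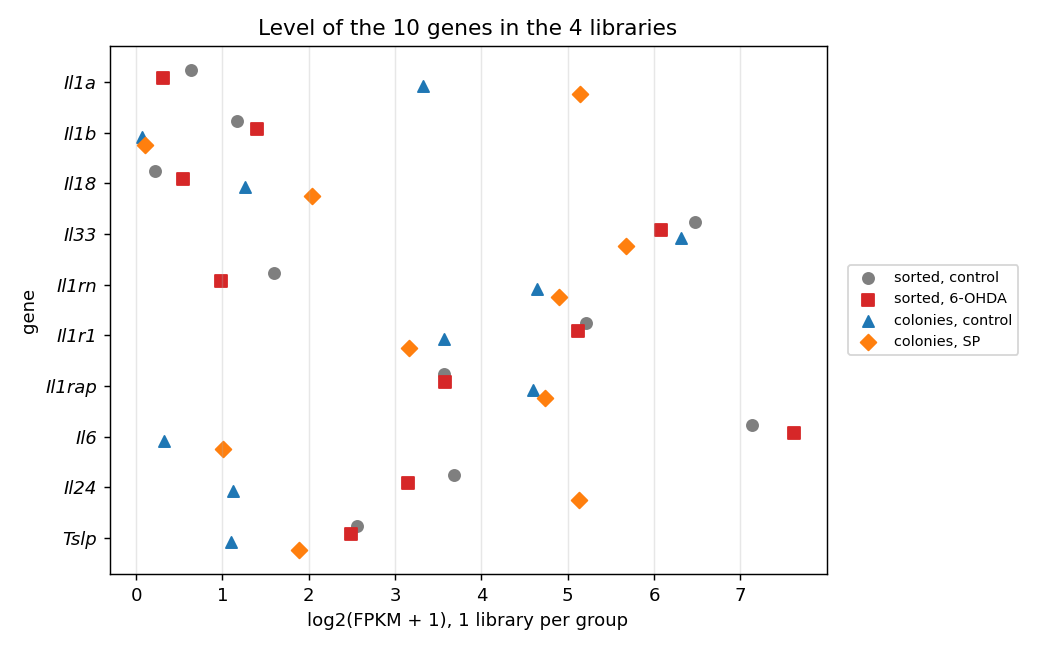
Level of the 10 genes as log2(FPKM + 1), with 1 point for each of the 4 libraries. Il6 lay highest in both sorted libraries and near 0 in the colonies, while Il1a and Il1rn were higher in both colony libraries than in the sorted cells.

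The label of basal cells was set beside 12 basal markers, which were all at 1 FPKM or more in each library. That level does not single out basal cells, since 11615 to 11887 of the 17630 genes reached it per library. Of 12 luminal markers, 11 reached it in control sorted cells and 12 in each other library. The basal markers summed to 11733 FPKM in control sorted cells, 10845 in 6-OHDA sorted cells, 7212 in control colonies and 15167 in SP colonies, with Krt14 the most abundant in each. Trp63, the basal transcription factor, was at 42.8, 52.6, 46.5 and 80.9 FPKM. The contractile markers were lower in colonies, with Myh11 at 467, 449, 11.2 and 21.5 FPKM. The 12 luminal markers summed to 1165, 1063, 2096 and 1964 FPKM, led by Krt8 in each library, and none was at 0.

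Endothelial transcripts were present in the sorted cells although the gate was negative for CD31. The 10 endothelial markers summed to 449.7 FPKM in control sorted cells, 435.5 in 6-OHDA sorted cells, 14.3 in control colonies and 7.07 in SP colonies. All 10 were at 1 FPKM or more in both sorted libraries, against 3 of 10 in each colony library. Pecam1, which encodes CD31 itself, was the most abundant in control sorted cells at 107 FPKM, and Plvap was in 6-OHDA sorted cells at 99.9 FPKM. The most abundant in the colonies were Erg at 10.3 FPKM without SP and Egfl7 at 3.59 FPKM with SP, where Tie1 and Cldn5 were listed at 0.

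The 12 fibroblast markers summed to 232, 441, 49.3 and 31.7 FPKM in control sorted cells, 6-OHDA sorted cells, control colonies and SP colonies. Their most abundant genes were Dcn in the sorted libraries, Col1a2 in control colonies and Fbln1 in SP colonies, where Dpt and Pi16 were listed at 0. The 8 adipocyte markers summed to 216, 383, 40.1 and 1.53 FPKM, and these sums were mostly Fabp4, at 210, 374, 34.4 and 1.05 FPKM. In control colonies Fabp4, Plin4, Lep and Pparg were lower than in control sorted cells, while Adipoq, Plin1, Cidec and Cfd were higher. Only 2 of the 8, Fabp4 and Pparg, passed the filter in that comparison. Plin1, Plin4, Cidec and Cfd were at 0 in SP colonies. Of 18 leukocyte markers, 2 were at 0 in each sorted library, 12 in control colonies and 9 in SP colonies. Ptprc, which encodes CD45, was at 0.77, 0.47, 0 and 0 FPKM. The leukocyte list summed to 18.3, 16.7, 34.9 and 136 FPKM, and the colony sums were mostly S100a8, at 30.9 and 124.5 FPKM, a gene that keratinocytes also express.

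Transcripts of several epithelial ligands were higher in the SP colonies. The comparison of SP with control colonies asked what adrenergic stimulation does to basal colonies, and 8 of the 10 genes passed the filter on low values. Il1a, Il18, Il24 and Tslp rose, 4 genes beside 11.7% of the 11849 genes compared, and Il33 and Il1r1 fell, 2 genes beside 19.8%. Their differences on the log2 scale were 1.81 for Il1a, 0.77 for Il18, 4.01 for Il24, 0.78 for Tslp, -0.65 for Il33 and -0.40 for Il1r1. Il1rn differed by 0.26 and Il1rap by 0.13, inside the threshold, and scaling by the median ratio of all genes moved Il1rn to 0.33. With a pseudocount of 5 the differences were 2.66 for Il24, 0.34 for Il18 and 0.32 for Tslp, and that of Il1r1 was -0.29, inside the threshold. Il1b and Il6 did not pass the filter, with differences of 0.03 and 0.69. The members that passed had a median difference of 0.51, beside -0.07 for all genes, and 0.19 for members that averaged 5 FPKM or more.

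The IL-1 family lists are given beside all genes, of which 11.7% were higher and 19.8% lower with SP. Of 9 measured IL-1 family ligands and antagonists, 6 were tested, 4 rose and 1 fell, with a median of 0.81. Il36g, an IL-36 agonist, was at 0, 0.13, 0.95 and 2.55 FPKM in the 4 libraries and rose by 0.86 with SP. Il36a, another IL-36 agonist, was at 0, 0, 0.63 and 1.94 FPKM and rose by 0.85. Both were under 1 FPKM in control colonies and passed the filter only through the SP library, so 2 of the 4 rises and the median depend on the filter. All 4 ligands that rose were thus at low or near-0 levels in the sorted cells. Of 9 receptor and binding protein genes, 6 were tested, 0 rose and 4 fell, with a median of -0.37. Besides Il1r1, the genes that fell included Sigirr, an inhibitory receptor, from 6.08 to 3.77 FPKM and Il18r1, the IL-18 receptor chain, from 7.70 to 5.26 FPKM.

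Downstream genes were counted in the same way, beside 11.7% of all genes higher and 19.8% lower with SP. Of 23 genes of IL-1 receptor signalling, 1 rose, 3 fell and 19 stayed inside the threshold, with a median of -0.04. The gene that rose was Rel, an NF-kB subunit, from 2.88 to 4.39 FPKM. Of 22 tested IL-1 and NF-kB response genes, 2 rose and 7 fell, with a median of -0.14. Ptgs2, which encodes cyclooxygenase-2, rose from 44.0 to 77.9 FPKM, and Cxcl5, a neutrophil chemokine, rose from 46.2 to 71.8 FPKM. Vcam1, an adhesion molecule, fell from 34.0 to 7.60 FPKM, the largest difference of this list at -2.02. Nfkbie fell from 9.23 to 5.43 FPKM, a larger difference than that of Cxcl5. Among 7 tested genes of IL-1 ligand processing, 3 rose and 0 fell, with a median of 0.23, and Capn2, a calpain, went from 72.3 to 98.4 FPKM. Casp1, which encodes caspase-1, stayed at 64.6 and 65.6 FPKM.

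Il24 rose together with Il19, another IL-20 family cytokine, which was at 0.29 FPKM in control colonies and 3.86 in SP colonies, a difference of 1.91. These further lists are also given beside all genes, of which 11.7% were higher and 19.8% lower with SP. Of 4 tested genes of the IL-20 family and its receptors, 2 rose and 0 fell, with a median of 0.95. Il19, 1 of the 2 that rose, passed the filter only through the SP library. Among the receptor chains on this list, Il10rb was at 14.8 and 12.0 FPKM, Il20rb at 2.72 and 2.67 FPKM, and Il20ra at 0.13 and 0.28 FPKM. Of the 10 tested IL-6 family genes, 0 rose and 6 fell with SP, with a median of -0.32, and the largest fall was that of Osmr, the oncostatin M receptor, from 55.3 to 33.2 FPKM. Of 8 genes of the JAK-STAT3 axis, 0 passed the threshold, with a median of -0.07. Of 6 tested genes around TSLP and IL-25, 2 rose and 3 fell, with a median of -0.36, and Crlf2, the TSLP receptor, fell from 9.34 to 6.69 FPKM while Tslp rose. Of 9 tested other epithelial cytokines, 2 rose and 3 fell, with a median of -0.11, led by Mif, from 314 to 648 FPKM, and Csf1, from 66.2 to 34.3 FPKM.

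Genes of cornifying keratinocytes moved with these ligands, and so did basal markers. The marker lists are given beside all genes, of which 11.7% were higher and 19.8% lower with SP, with a median of -0.07. Of 12 basal markers, 7 rose and 1 fell, with a median of 0.82. Luminal markers had 1 of 12 higher and 6 lower with SP, with a median of -0.24, and Foxa1, a luminal transcription factor, was at 15.2 and 8.32 FPKM. Of 12 cornifying markers, 9 were tested with SP and 9 rose, with a median of 1.55. Of these Krt1, Sprr2d and Calm4 were under 1 FPKM in control colonies and passed the filter only through the SP library, while Lor, below the filter, was at 0.54 and 0.18 FPKM. The cornifying sum was 99.9 FPKM in control colonies and 758 in SP colonies, and 22.7 and 33.5 FPKM in the control and 6-OHDA sorted cells. Krtdap was the most abundant in SP colonies at 528 FPKM, Sbsn in control colonies at 47.9 FPKM and Sprr1a in both sorted libraries, and none was at 0 in either colony library. In the sorted cells Flg and Sprr2d were at 0 in both libraries, with Sprr1b and Calm4 at 0 in the control. The part of cornifying cells in the rise of Il1a, Il18 and Il24 was not tested.

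With 6-OHDA, Il1rn, Il33 and Il24 fell, 3 of the 8 genes that passed the filter beside 8.35% of the 11749 genes compared, and Il6 rose, 1 gene beside 15.8%. The comparison asked what loss of sympathetic nerves does to basal cells in the gland. The differences were -0.61 for Il1rn, -0.40 for Il33, -0.53 for Il24 and 0.49 for Il6. Il1b differed by 0.23, Il1rap by 0.01, Il1r1 by -0.08 and Tslp by -0.08, all inside the threshold. Il1a and Il18 did not pass the filter, with differences of -0.33 and 0.33. The members that passed had a median of -0.08, beside 0.06 for all genes. Il1rn rested on roughly 38 and 18 fragments, and its difference was -0.23 with a pseudocount of 5.

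Receptors and response genes are given beside all genes, of which 15.8% were higher and 8.35% lower with 6-OHDA. Of 7 tested IL-1 family receptor genes, 2 rose and 1 fell, with a median of 0.01. Il1rl1, the IL-33 receptor, was at 1.65 and 4.31 FPKM, and Il1r2, the decoy receptor for IL-1, was at 0.58 and 1.5 FPKM, passing the filter only through the 6-OHDA library. Thus Il33 fell in the library in which its receptor transcript rose. Of 23 IL-1 and NF-kB response genes, 3 rose and 4 fell, with a median of -0.05. Ccl20, a chemokine of epithelia, rose from 3.55 to 6.98 FPKM. Ccl2, a monocyte chemokine, fell from 217 to 121 FPKM, and Cxcl5 from 23.9 to 14.2 FPKM. Of 23 signalling genes, 1 rose and 1 fell, with a median of -0.06, namely Irak2 from 2.59 to 3.77 FPKM and Myd88 from 62.7 to 50.1 FPKM.

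The remaining lists had more falls than rises in sum with 6-OHDA, where 8.35% of all genes were lower and 15.8% higher. Of 3 tested IL-1 family ligands and antagonists, 0 rose and 2 fell, namely Il33 and the antagonist gene Il1rn, with a median of -0.40. Of 7 tested processing genes, 0 rose and 2 fell, with a median of 0.01, among them Gsdmd, which encodes the pore protein gasdermin D, from 7.07 to 5.31 FPKM. Of 5 tested IL-20 family genes, 0 rose and only Il24 fell, with a median of 0. Of 12 tested IL-6 family genes, Il6 rose and Il11, another gp130 cytokine, fell from 30.4 to 21.0 FPKM, with a median of 0.13. Socs1 and Socs3, feedback inhibitors of cytokine signalling, fell from 20.1 to 13.0 and from 353 to 276 FPKM, the 2 falls among 8 JAK-STAT3 genes, which had a median of -0.21. Il2rg, the common cytokine receptor gamma chain, fell from 70.3 to 42.3 FPKM, the only change among 5 tested genes around TSLP and IL-25, whose median was -0.19. Of 11 tested other epithelial cytokines, 0 rose and 5 fell, with a median of -0.27, including Il15 from 5.34 to 2.90 FPKM and Tnfsf10, which encodes TRAIL, from 20.6 to 11.3 FPKM.

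Beside 15.8% of all genes higher and 8.35% lower with 6-OHDA, the fibroblast list had 7 of 12 genes higher and 0 lower, with Col3a1 at 18.3 and 91.7 FPKM. Pi16, among the higher genes at 0.90 and 1.64 FPKM, passed the filter only through the 6-OHDA library. The endothelial list had 2 of 10 higher and 0 lower, with a median of -0.01. The cornifying list had 3 of 5 tested genes higher and 0 lower, with a median of 0.34. Of these Krt1, at 0.05 and 2.89 FPKM, passed the filter only through the 6-OHDA library. Basal markers had 1 of 12 higher, Acta2, and 2 lower, Krt14 at 3595 and 2633 FPKM and Krt17 at 2266 and 1643 FPKM. Luminal markers had 2 of 11 tested genes higher and 3 lower. Of 8 adipocyte markers, 3 were tested, 2 rose and 0 fell, with Fabp4 at 210 and 374 FPKM. Below the filter, Adipoq, Cidec and Lep were lower with 6-OHDA, and Plin1 and Cfd were higher. Salivary gland transcripts, a list chosen from earlier results of these data, summed to 1.87 FPKM in control sorted cells and 15754 in 6-OHDA sorted cells, with Bpifa2 the most abundant at 7277 FPKM, and to 1.36 and 1.11 FPKM in control and SP colonies. At 0 were 8 of the 11 genes in control sorted cells, 0 in 6-OHDA sorted cells, 8 in control colonies and 9 in SP colonies. After rescaling without these genes, Il1rn, Il33 and Il24 still fell and Il6 still rose. The part of other cells in these differences was not tested.

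In control colonies against control sorted cells, Il1a, Il1rn and Il1rap were higher, 3 of the 8 genes that passed the filter beside 55.7% of the 12244 genes compared, and Il6, Il24, Il1r1 and Tslp were lower, 4 genes beside 26.6%. The differences were 2.68 for Il1a, 3.05 for Il1rn, 1.03 for Il1rap, -6.81 for Il6, -2.56 for Il24, -1.64 for Il1r1 and -1.46 for Tslp. Il1a, under 1 FPKM in control sorted cells, passed the filter only through the colony library. Only 5 of the 12244 genes fell by more than Il6. Il33 differed by -0.16, inside the threshold. Il1b and Il18 did not pass the filter, with differences of -1.10 and 1.05. This comparison shares its sorted library with the 6-OHDA comparison and its colony library with the SP comparison. Culture, time outside the gland and the time since dissociation and sorting all differ between these libraries and cannot be told apart.

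Most genes differed between colonies and sorted cells, and the median of all genes was 0.45. Scaling by the median ratio, which centres the genes by construction, moved it to -0.01, and 49.6% of the genes past the threshold were then higher, against 67.7% before. Relative to the median of all genes, the differences were 2.23 for Il1a, 2.59 for Il1rn, 0.58 for Il1rap, -0.61 for Il33, -2.09 for Il1r1, -1.91 for Tslp, -3.01 for Il24 and -7.26 for Il6. Under median-ratio scaling Il33 passed the threshold as a fall, at -0.66. In the other comparisons the share of higher genes among those past the threshold went from 65.4% to 50.4% with 6-OHDA and from 37.1% to 49.96% with SP under the same scaling.

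**Figure D2:**
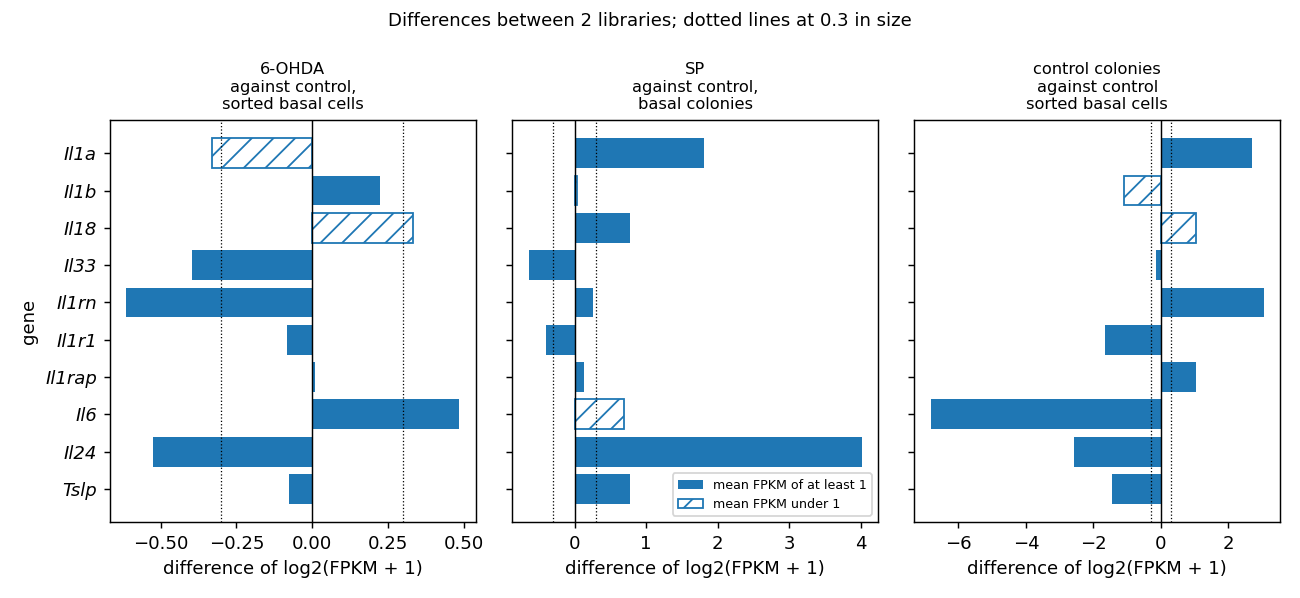
Differences of log2(FPKM + 1) of the 10 genes in the 3 comparisons, with filled bars for genes that passed the filter, hatched bars for the others, and a separate scale in each panel. With SP the tallest bar is Il24 at 4.01, and between colonies and sorted cells it is Il6 at -6.81.

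The lists are given beside all genes, of which 55.7% were higher and 26.6% lower in colonies, with a median of 0.45. Of 3 tested IL-1 family ligands and antagonists, 2 were higher, namely Il1a and the antagonist gene Il1rn, and 0 lower. The median of 2.68 is the value of Il1a, which passed only through the colony library. Of 7 tested IL-1 family receptor genes, 4 were higher and 2 lower in colonies, with a median of 1.03. Il18r1, which passed only through the colony library, was at 0.68 and 7.70 FPKM and Sigirr at 2.25 and 6.08 FPKM, opposite to Il1r1. Of 7 tested processing genes, 3 were higher and 3 lower, with a median of 0.23. Casp1 was at 9.98 and 64.6 FPKM and Pycard, the inflammasome adaptor, at 1.08 and 10.3 FPKM, while Casp4, which encodes caspase-11, was at 41.2 and 5.74 FPKM. Of 23 signalling genes, 5 were higher and 9 lower, with a median of -0.11, among the latter Nfkb2 at 98.3 and 29.9 FPKM and Rel at 13.5 and 2.88 FPKM.

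Of all genes, 55.7% were higher and 26.6% lower in colonies, with a median of 0.45. Response genes were mostly lower in colonies, with 13 lower and 5 higher of 22 tested and a median of -0.64. Ccl2 was at 217 and 9.23 FPKM, Csf3, a granulocyte growth factor, at 116.5 and 12.5 FPKM, and Icam1, an adhesion molecule, at 543 and 64.0 FPKM. Of 12 tested IL-6 family genes, 7 were lower and 4 higher, with a median of -1.52. The cytokine Il11 was at 30.4 and 0.75 FPKM, whereas Cntfr, the ciliary neurotrophic factor receptor, was at 5.97 and 107 FPKM. Of 8 JAK-STAT3 genes, 7 were lower and 1 higher, with a median of -1.61, and Socs3 was at 353 and 57.1 FPKM. Of 4 tested IL-20 family genes, 1 was higher and 3 lower, with a median of -1.19, and of 6 tested genes around TSLP and IL-25, 2 were higher and 4 lower, with a median of -0.93. Of 9 tested other epithelial cytokines, 3 were higher and 4 lower, with a median of 0.01. Tnf was at 3.93 and 36.5 FPKM, so that not every inflammatory cytokine was lower in colonies.

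Beside 55.7% of all genes higher and 26.6% lower in colonies, luminal markers were higher in 8 of 12 genes and lower in 1, with a median of 0.67, and Wfdc18 was at 32.3 and 567 FPKM. Elf5, among the higher genes at 0.63 and 22.5 FPKM, passed the filter only through the colony library. Basal markers were lower in 8 of 12 and higher in 1, with a median of -1.25, and Myh11 was at 467 and 11.2 FPKM. Of 5 tested cornifying markers, 4 were higher and 0 lower, with a median of 1.94, and Krtdap was at 1.21 and 29.5 FPKM. Sprr1b, at 0 and 2.83 FPKM, passed the filter only through the colony library. The part of luminal, basal or cornifying cells in the higher levels of Il1a and Il1rn was not tested. The fall of Il6 in colonies coincided with that of the endothelial list, in which 10 of 10 genes were lower with a median of -4.43. Fibroblast markers were lower in 8 of 10 tested genes and higher in 1, with a median of -1.62, and Dcn was at 115 and 1.52 FPKM. Leukocyte markers were lower in 3 of 4 tested genes, with a median of -1.09. S100a8 was higher and passed the filter only through the colony library. Between SP and control colonies, where 11.7% of all genes were higher and 19.8% lower, 1 endothelial marker rose and 1 fell of 3 tested. Of 8 tested fibroblast markers, 2 rose and 5 fell, with a median of -0.74. The largest difference was that of Col1a2, from 20.6 to 3.94 FPKM, while Fbln1 was at 5.72 and 15.1 FPKM. For Il6, Il1b and Il33, the part of other cells was not tested.

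Profiles over the 4 libraries were compared by the Euclidean distance between log2(FPKM + 1) values, each centred on its own mean, among 9121 genes averaging 5 FPKM or more. The 5 genes nearest to Il6 were Aqp1, a water channel, Ackr1, an atypical chemokine receptor of venules, Sele, which encodes E-selectin, Plvap and Eln, at distances from 0.44 to 0.87. Ackr1 was at 96.7, 95, 0 and 0 FPKM and Sele at 75.6, 88.5, 0.04 and 0.02 FPKM. Plvap is on the endothelial list, and Sele and Ackr1 are known from endothelium. Nearest to Il1a were Duoxa1, Spink5, Sbsn, Dynap and Serpina3i, from 0.31 to 0.61. Of these Duoxa1, a maturation factor of a dual oxidase, was at 0.35, 0.36, 10.4 and 37.0 FPKM, and Sbsn, which is also on the cornifying list, was at 3.85, 3.30, 47.9 and 142 FPKM.

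**Figure D3:**
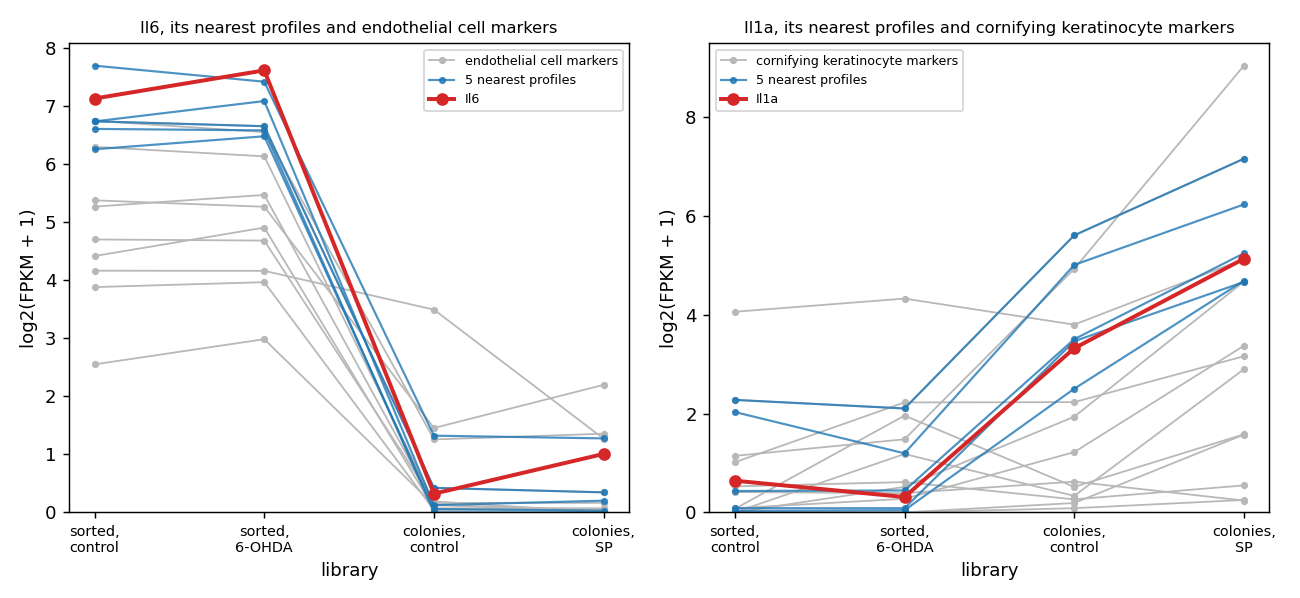
Profiles over the 4 libraries as log2(FPKM + 1), with Il6 beside endothelial markers in the left panel and Il1a beside cornifying keratinocyte markers in the right panel. Il6 dropped from 139 FPKM in control sorted cells to 0.25 in control colonies, as did its 5 nearest profiles, and Il1a was highest in SP colonies at 34.2 FPKM.

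For Il1rn the nearest profile was that of Tnf, at a distance of 0.35, followed by Rab25, a GTPase of epithelial vesicle recycling. Il1r1 had closer neighbours, with Sdc4, a syndecan, at a distance of 0.06 and 490, 487, 158 and 120 FPKM. For Il24 the nearest were Tmem45a at 1.12 and Slc16a3, a lactate transporter, at 1.33, so no gene followed it closely. Il1b, Il1rap, Il18, Il33 and Tslp ranged over less than 2 on the log2 scale and had no neighbours searched.

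Members that lie beside each other in the genome did not always move together. These loci were picked after the values were seen. Coordinates are those of RefSeq on GRCm38.p6, the assembly of the mm10 build the authors used. Il1a lies at chr2:129299609-129310186 and Il1b at chr2:129364569-129371164, 54.4 kilobases apart with 0 protein-coding genes between them, and Il1a was higher in control colonies than in control sorted cells while Il1b, below the filter, was at 0.05 against 1.25 FPKM. Il1r1 at chr1:40222480-40316201 lies in a cluster of 6 receptor genes over 467 kilobases. Its neighbour Il1rl2, the IL-36 receptor, begins 8.39 kilobases away and was at 4.61, 3.75, 10.4 and 8.87 FPKM, higher in colonies where Il1r1 was lower. Il24 at chr1:130882074-130887411 and Il19 at chr1:130932656-130945457, both higher with SP, lie 45.2 kilobases apart with 1 coding gene between them.

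Promoters are shown because the design named the IL-1 receptor ligands and antagonist, and Il6 was added after its values were seen. They are set beside the levels, in which Il1a and Il1rn were higher in colonies and Il6 was lower. RefSeq windows of 300 bases, from 250 before to 50 after a gene's start, were held for 8 of the 10 genes, with 0 entries for Il24 and Tslp. On both strands 6 motifs were searched, and their shares among 32851 windows were 5.82% for the kB element GGNNTTTCC, 7.81% for the AP-1 element TGANTCA, 1.79% for the cAMP response element TGACGTCA, 20.8% for its core TGACG, which lies inside the full element, 19.6% for the hypoxia response element ACGTG and 8.30% for the STAT element TTCNNNGAA. The windows of Il1b, Il18 and Il33 held 0 of the 6. A match is a description of letters, not a site of binding, and no match says only that these letters were not in the window.

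The AP-1 letters occurred in Il1a at position -12 from the start of its window's transcript, which lies inside the RefSeq gene span given above and downstream of that span's 5' end, and in the most upstream of the 3 Il1rn windows at position -141, and a kB match lay at -50 in another Il1rn window, the same site being at 31 in the remaining, overlapping one. The 30 bases around each, stretches picked after the values were seen, are printed with the motif in capitals, from the minus strand at chr2:129309973-129310002 for Il1a and from the plus strand at chr2:24336708-24336737 and chr2:24345311-24345340 for Il1rn. The Il1a and AP-1 Il1rn stretches overlap 0 exons of GENCODE vM21, while the kB stretch of Il1rn overlaps 2 annotated exons, each with untranslated sequence.
Il1a, AP-1: taaaaaggcagagaagccTGACTCAgactt
Il1rn, AP-1: ttctgctagacTGAGTCAcgcctctggaag
Il1rn, kB: gaaatatgagGGTTTTTCCgcttctgacag

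Il6 held matches of 3 motifs in its 1 window, the AP-1 letters at -249, the core of the cAMP response element, read CGTCA on the printed strand, at -135 and the kB element at -43. The 250 bases before its start, on the plus strand at chr5:30012864-30013113, overlap 0 annotated exons and are printed with those matches in capitals. The other matches were the hypoxia letters in Il1r1 at -138 and in Il1rap at -218, and the core of the cAMP response element in Il1r1 at -23.
Il6: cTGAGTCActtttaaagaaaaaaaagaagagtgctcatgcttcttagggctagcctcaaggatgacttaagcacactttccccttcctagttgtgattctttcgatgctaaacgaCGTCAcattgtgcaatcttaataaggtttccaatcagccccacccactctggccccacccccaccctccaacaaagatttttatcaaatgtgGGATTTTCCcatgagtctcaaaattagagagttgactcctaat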

How the data were processed

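RNA-seq of 4 libraries was used, each with 1 column of FPKM values deposited by the authors. Per the submitters' processing notes, the authors used Bowtie2, RSEM 1.3.1 and DESeq2 1.4.5 with the mm10 build. The annotation is not given in the sources used here. Gene numbers were matched to RefSeq symbols of GRCm38.p6, with 17512 of 17630 matched.

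Differences are of log2(FPKM + 1) for genes averaging 1 FPKM or more across the pair, with a threshold of 0.3, the fold threshold of the study's volcano plot. No test was run, since each group had 1 library. Named genes are the 10 members, up to 3 tested genes per pathway list with the largest differences in a comparison, and the 5 nearest profiles of members ranging over at least 2. Marker genes are examples from their lists. Il1rl2, Il20rb, the ratios, the loci, the 30-base stretches and the Il6 promoter were picked after the values were seen. The members and the 10 pathway and 8 marker lists were chosen with earlier results of these data known. The fold step was tested on simulated data. Depth was estimated by fitting FPKM times effective length of 2292 genes with 1 GENCODE transcript to whole multiples of 1 fragment, using between 229 and 258 genes per library at 250 bases. That fit scored from 0.39 to 0.44, where 1 is perfect. The 16 fits (4 assumed lengths of 150 to 300 bases in 4 libraries) gave 14.9 to 18.8 fragments, apart from 39.6 for SP colonies at 300. Fragments per gene use the median GENCODE transcript length. Alternatives were pseudocounts of 0.1 and 5, no filter, a mean of at least 5, a threshold of 1 and 4 other scalings. Python 3.11.15, numpy 2.4.6, pandas 2.3.3 and matplotlib 3.10.9 were used.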

Additional observations from a re-analysis of the deposited data

How the results depend on the processing

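With 1 library per group, no spread between replicates can be given, and differences of low genes rest on few fragments. Among the members that passed the filter, no difference changed sign past the threshold under any alternative. Single genes of the lists, and members below the filter, were not followed in this way.

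In the 6-OHDA comparison, 2 members were higher with a pseudocount of 0.1 and 2 without the filter, against 1. Of all genes, 2331 of 11749 and 2251 of 17630 were then higher, against 1857 of 11749. With a threshold of 1, 0 members were higher and 0 lower. All genes higher and lower were 804 and 539 with a pseudocount of 5, 1066 and 639 at a mean of 5, and 123 and 106 with a threshold of 1, against 1857 and 981.

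In the SP comparison, members lower were 1 with a pseudocount of 5 and 0 with a threshold of 1, against 2. Members higher were 2 at a mean of 5 and 2 with a threshold of 1, against 4. At a mean of 5, 993 of 9259 genes were higher, against 1385 of 11849. The member median was 0.27 with a pseudocount of 5 and 0.19 at a mean of 5, against 0.51. All genes lower were 1276 with a pseudocount of 5, against 2351, and 237 were higher and 158 lower with a threshold of 1.

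Between colonies and sorted cells, 4902 genes were lower with median-ratio scaling, against 3252, and 3761 were higher and 1619 lower with a threshold of 1.

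A larger pseudocount, a higher filter and a higher threshold each remove calls by construction. The share of higher genes was 65.4% with 6-OHDA, 37.1% with SP and 67.7% between colonies and sorted cells. Median-ratio scaling, which centres it by construction, gave 50.4%, 49.96% and 49.6%, quantiles 47.3%, 47.2% and 54.3%, the same sum 58.9%, 32.9% and 61.6%, and the same sum without salivary genes 69.6%, 32.9% and 61.6%.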
